A study of Mus musculus with 8 samples.

Results

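Oligo1 and Oligo2 are the 2 large populations of mature oligodendrocytes that remain in the aged brain once the age-related (ARO) and the interferon-responsive (IRO) oligodendrocytes are set apart. Their wild-type cells were compared between white and gray matter. Cells were chosen by the cluster name that the authors deposited for each cell, and 4851 of the 6003 wild-type oligodendrocytes carried one of the names, out of 15604 oligodendrocytes in the whole table. The cells came from 24-month-old male C57BL/6 wild-type mice, from 4 droplet-based (10x Genomics, 3′) single-cell libraries. Gray matter was frontal cortex. White matter was dissected from the optic tract, the medial lemniscus and the corpus callosum. Each library held tissue pooled from several mice, and in each of the 2 experiments (pool 1 and pool 2) the same mice gave 1 gray and 1 white matter library, so the tissues were compared within a pool. Tissue was dissociated with actinomycin D, which blocks transcription during handling, and live cells were sorted as SYTOX Blue-negative without a gate for any cell type. White and gray matter here are also different brain regions, so region and tissue type cannot be told apart, and the mice in a pool cannot be separated.

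Oligodendrocytes wrap axons in myelin and supply them with metabolites. In white matter tracts they ensheathe long bundled axons, and in cortex they lie among neuronal cell bodies and synapses. Mature oligodendrocytes fall into states that share the myelin genes and differ in others, among them Ptgds, the enzyme that makes prostaglandin D2 and a marker the study gives for Oligo1, and Klk6 and S100b, a secreted serine protease and a calcium-binding protein that the study gives for Oligo2. The clusters were drawn from the expression of these same cells, and cells with the strongest age-related or interferon-responsive expression had already been placed in ARO or IRO, so what follows describes the cells that were left.

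Oligo1 held 200 and 740 cells in the gray matter of pools 1 and 2, and 229 and 1817 cells in the white matter. Oligo2 held 82 and 374 gray and 129 and 1280 white matter cells. Unique molecular identifiers (UMIs), which count captured RNA molecules, were summed over the cells of each library and cluster, giving 903365 to 16604545 UMIs per sum, with a median of 8915 to 14702 UMIs per cell. Levels are given as CPM, UMI counts scaled to a common library total, and a called gene is one with an adjusted p of 0.05 or less in edgeR's quasi-likelihood test. A fold change for a gene is in a sum over cells, so more cells expressing it and more RNA per cell are separated only where shares of cells are given. Values over 2 libraries per tissue carry wide uncertainty. The paired test had 1 residual degree of freedom and used 1 spread for all genes, and the calls were far fewer when the pool was ignored or the deep pool 2 lost a library. The paired fit of 4 libraries has no residual degree of freedom once a library is left out, so each wild-type library was left out in a fit of 8 libraries, which added 4 libraries from 24-month-old Rag1 KO mice (strain NOD.129S7(B6)-Rag-1tm1Mom/J, 1 gray and 3 white matter libraries, the strain as the labels give it, while the study's methods name a C57BL/6J background) with a tissue term and pool blocks of their own. The mice of these libraries carry a knockout of Rag1, needed for mature lymphocytes. Their libraries enter that fit through the estimate of spread and the set of genes tested. Once a wild-type library was left out, the 1 residual degree of freedom was the difference between 2 white matter Rag1 KO libraries of the same batch. The tissue difference then came from the other wild-type pool alone. Leaving out the gray or the white matter library of a pool is therefore nearly the same check.

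The cluster names held up against oligodendrocyte markers. The myelin protein genes Mag and Mog lay between 2927 and 3338 CPM and between 1092 and 1337 CPM over all 8 sums, and Mbp, Mog, Mag, Mobp and Cnp were not called in either cluster. Markers of other cell types were present at low levels and differed with the tissue. The 12 astrocyte markers summed to 649 and 471 CPM in gray and 290 and 245 CPM in white matter Oligo1, and 11 of the 12 tested were called lower in white matter. In Oligo2 they summed to 458 and 372 CPM in gray and 235 and 204 CPM in white matter, with 4 of the 6 tested called lower. Cells of the same libraries chosen by their microglial markers, which should hold little astrocyte RNA, held 792 and 710 CPM of these markers in gray and 172 and 159 CPM in white matter. Slc1a3 alone gave 122.5 and 108.7 CPM of the white matter values in those cells. Plpp3, another of the 12, was at 133 and 96.2 CPM in white matter Oligo1c against 6.20 and 6.05 CPM in white matter microglial-marker cells. The astrocyte sums therefore do not measure free RNA alone. Microglial markers in Oligo1 differed more between pools than between tissues, with 1245 and 137 CPM in gray and 870 and 105 CPM in white matter. Markers of ependyma and choroid plexus were at 0 and 1.79 CPM in gray and 25.5 and 17.7 CPM in white matter Oligo1. The part of free RNA in single results was not tested, and levels in the microglial-marker cells are given beside some of the genes.

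**Figure D1:**
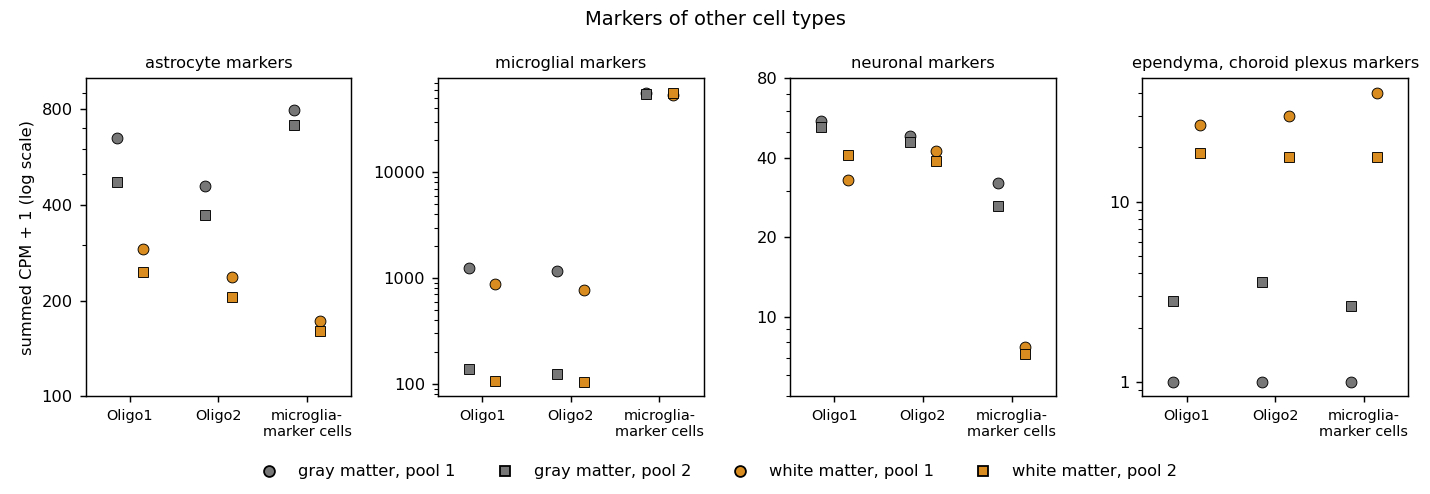
Summed CPM plus 1, on a log axis, of 4 lists of markers of other cell types in Oligo1, Oligo2 and the cells chosen by microglial markers, for each wild-type library (circles pool 1, squares pool 2, gray for gray matter and orange for white matter). Astrocyte markers sit higher in gray than in white matter in all 3 kinds of cells, from 371.8 CPM and above against 289.6 CPM and below.

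The subclusters that the authors drew within each cluster were not evenly spread over the tissues. Oligo2c made up 1.22% and 0.267% of gray matter Oligo2 and 27.9% and 27.2% of white matter Oligo2, and Oligo2b made up 85.4% and 90.4% of gray against 37.2% and 43.8% of white matter Oligo2. Within Oligo1, Oligo1b fell from 36.5% and 59.2% of gray to 25.8% and 9.03% of white matter cells, while Oligo1a made up 23.5% and 19.7% of gray and 26.6% and 40.2% of white matter cells. A change in a merged cluster can therefore hold a change in the mix, and values at an equal mix of subclusters (without Oligo2c) and within subclusters are given for some of the genes and lists. The equal mix was reached by drawing fewer cells, 38 and 124 gray and 65 and 775 white matter cells in Oligo2 and 168 and 389 gray and 178 and 501 white matter cells in Oligo1, so depth fell with it. Values from the same numbers of cells drawn at random from all subclusters, a setting added after the data were seen, are set beside it. Levels within subclusters are read in the same libraries and have no separate test.

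In Oligo1, white matter cells carried more C4b RNA (log2 fold change 3.37 ± 0.09, SE) and Serpina3n RNA (3.12 ± 0.14) than gray matter cells, and more RNA of other genes that the study lists as age-related. They carried less RNA of the pacemaker channel Hcn2, the metabotropic glutamate receptor Grm7 and the lactate dehydrogenase subunit Ldhb. White matter levels were called higher for 271 (2.52%) and lower for 380 (3.54%) of the 10740 genes in the test. The levels of both libraries of one tissue lay above those of the other for 221 of the 271 and 301 of the 380, against 3644 of all 10740 genes tested, and 77 and 135 of them differed at least 2-fold. When the pool was left out of the fit 6 and 4 genes were called, DESeq2 called 28 and 33, and an equal mix of subclusters gave 141 and 156, against 209 and 250 with as many cells drawn at random. The fit of 8 libraries called 210 and 261 genes, and without gray matter 2 or white matter 2 it called 32 and 60 or 27 and 44.

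C4b (chr17:34728380-34743882, minus strand, GRCm38) encodes complement component 4. In Oligo1 its level was 124 and 85.8 CPM in the gray and 887 and 1127 CPM in the white matter libraries. The tissues did not overlap. The log2 fold change was 3.37 ± 0.09 (n = 2 libraries per tissue, edgeR quasi-likelihood test, adjusted p = 1.89e-272). Its SE and p rest on the spread shared by all genes, not on how C4b itself varied between the pools. In the fit of 8 libraries the change was 3.72 without gray matter 1 and 2.85 without gray matter 2. The share of cells with a C4b UMI, after every cell was thinned to 3000 UMIs, was 17.1% (95% exact interval 12.1% to 23.2%) and 17.7% (15% to 20.6%) in gray and 72.4% (66.1% to 78.2%) and 80.8% (78.9% to 82.6%) in white matter, and a UMI was found in most white matter cells. Without thinning the shares were 36.0% and 36.1% in gray and 88.7% and 91.4% in white matter. In the cells chosen by microglial markers, which should hold little of this RNA, the thinned shares were 2.26% and 2.75% in gray and 12.4% and 9.11% in white matter. C4b has a near-identical neighbor, C4a, and reads from one could be counted for the other. 

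Serpina3n (chr12:104406729-104414329, plus strand), a secreted serine protease inhibitor, was at 16.8 and 11 CPM in gray and 85.9 and 115 CPM in white matter Oligo1 (log2 fold change 3.12 ± 0.14). Both white matter libraries lay above both gray ones, and the thinned share of cells with a UMI was 5.70% and 2.47% in gray and 14.7% and 21.1% in white matter, against 0% and 0.25% and then 2.49% and 0.651% in the microglial-marker cells. A share of 0 in the 177 thinned cells of gray matter 1 allows up to 2.06%. Without gray matter 1 or white matter 1, the edgeR fit of 8 libraries gave changes of 3.72 and 3.73 for C4b and 3.39 and 3.41 for Serpina3n. Without gray matter 2 or white matter 2 that fit gave 2.85 and 2.85 for C4b and 2.37 and 2.36 for Serpina3n. Both genes stayed called in each of these fits and in DESeq2 (adjusted p = 1.73e-11 and 4.87e-06).

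Another 10 genes complete the 12 largest called increases in Oligo1 by the rule for named genes, which takes only genes whose tissues do not overlap. The unnamed transcripts 7630403G23Rik (5.42 and 6.01 CPM in gray, 38.6 and 38.5 CPM in white matter) and Gm48678 (9.76 and 13.6 against 47.7 and 58.0 CPM) rose by 2.71 and 2.13 on the log2 scale. Gfap, an intermediate filament best known from astrocytes, went from 2.71 and 3.71 to 18.9 and 16.6 CPM, and from 1.45 and 1.65 to 10 and 6.70 CPM in the microglial-marker cells. The scaffold protein gene Slc9a3r2 went from 9.76 and 9.98 to 33.3 and 35.4 CPM, and Nol3, a repressor of apoptosis, from 19.5 and 16.4 to 46.8 and 49.1 CPM. Cela1, Shisa8, Tmem117 and Thbs3 rose by 1.44 to 1.88 on the log2 scale. Klk6 was low in Oligo1, at 8.13 and 1.66 CPM in gray and 10.7 and 21.2 CPM in white matter. Without gray matter 2 or white matter 2 the calls for Klk6, Cela1, Shisa8, Tmem117 and Thbs3 were lost (largest adjusted p 0.851, 0.236, 0.311, 0.451 and 0.544 in the edgeR fit of 8 libraries).

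The glutamate receptor subunit gene Gria4 also rose in Oligo1, from 17.4 and 21.7 CPM in gray to 49.7 and 56.5 CPM in white matter (log2 fold change 1.41 ± 0.14). Sparc, a secreted glycoprotein of the extracellular matrix, rose from 124 and 62.4 to 207 and 165 CPM. Sparc was at 2497 and 2995 CPM in gray and 1707 and 2362 CPM in white matter microglial-marker cells, and the part of such RNA in the difference was not tested.

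Hcn2 (chr10:79716634-79736108, plus strand), a channel opened by hyperpolarization, was the most abundant of the 12 largest called decreases in Oligo1. Its level was 278 and 297 CPM in gray and 103 and 89.6 CPM in white matter, without overlap (log2 fold change −1.62 ± 0.08, edgeR adjusted p = 3.20e-77). With subclusters at an equal mix it was −0.99 and still called. Among the 3 Oligo1 subclusters Hcn2 was highest in Oligo1b, at 406 and 391 CPM in gray and 195 and 251 CPM in white matter. White matter lay below gray in each of the 3, by 0.40 on the log2 scale in both pools of Oligo1a. The thinned share of cells with an Hcn2 UMI was 36.8% and 43.4% in gray and 16.9% and 18.0% in white matter. Gm16233 (chr3:144947561-144954878, plus strand), a transcript without a protein name, was at 43.4 and 53.6 CPM in gray and 11.1 and 9.54 CPM in white matter, and Grm7 at 28.7 and 29.7 against 6.57 and 11.2 CPM. Both were at 1.45 CPM or less in all 4 libraries of microglial-marker cells. Ldhb, which encodes a lactate dehydrogenase subunit, was at 88.9 and 82.5 CPM in gray and 37.8 and 25.6 CPM in white matter. The call for Hcn2, Grm7 and Ldhb held without each library, and that for Gm16233 was lost without white matter 2 (adjusted p = 0.0548, edgeR fit of 8 libraries).

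Cyp2j9, a cytochrome P450, fell by 1.70 on the log2 scale, and 3632451O06Rik, A430106G13Rik, Dab1 (an adaptor of Reelin signaling) and Flrt3 (a membrane adhesion protein) fell by 1.31 to 1.53. Sparcl1, a secreted protein made by astrocytes, showed the largest fall of the 12, from 68.9 and 52.4 to 11.9 and 7.92 CPM. Sparcl1 was at 82.0 and 73.7 CPM in gray and 6.67 and 10.5 CPM in white matter microglial-marker cells, so a difference of the same direction was present in cells of another type. Cpe, a peptide-processing carboxypeptidase, fell from 88.9 and 60.6 to 32.9 and 23.8 CPM and was at 66.8 and 30.9 against 10.5 and 9.81 CPM in the microglial-marker cells. Cspg5, a membrane proteoglycan, fell from 17.9 and 14.3 to 3.70 and 6.42 CPM and was at 19.6 and 21.6 against 0.953 and 1.80 CPM in those cells. The part of free RNA in these 3 was not tested. Dab1, Cspg5 and Flrt3 lost their calls without white matter 2 (largest adjusted p 0.178, 0.0548 and 0.0871, edgeR fit of 8 libraries), although their fitted falls were then larger, at −1.68, −2.26 and −2.02 against −1.43, −1.39 and −1.31, Dab1 and Flrt3 without gray matter 2 as well, and 3632451O06Rik was not in that fit. The call for 3632451O06Rik was lost at an equal mix (adjusted p = 0.0765, edgeR), with no block (0.313) and in DESeq2 (0.144). A430106G13Rik was called at an equal mix (adjusted p = 0.000327, edgeR) but not with no block (0.393, edgeR) or in DESeq2 (0.0737). Its change ranged from −2.74 to −1.16 as libraries were left out.

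In Oligo2, white matter cells again carried more C4b and Serpina3n RNA, and more RNA of the interferon-induced Ifi27l2a, of the MHC class I genes B2m and H2-D1, and of 33 of the 49 tested genes that the study lists as Oligo2 markers. Ptgds and another 9 of the 13 tested Oligo1 markers were lower. White matter levels were called higher for 375 (3.72%) and lower for 344 (3.41%) of the 10079 genes in the test, of which 354 and 299 did not overlap between tissues, against 3826 of all genes tested, and 162 and 120 differed at least 2-fold. When the pool was left out 87 and 50 genes were called, and DESeq2 called 69 and 47. The fit of 8 libraries called 474 and 383 genes, 109 and 78 without gray matter 2 and 62 and 51 without white matter 2. At an equal mix of subclusters 57 and 64 genes were called, against 187 and 152 with as many cells drawn at random. Of the 318 genes called higher in white matter that could be tested at an equal mix, 315 had the same sign, with a median log2 fold change of 0.42 against 0.74 for the same genes before. The drawn cells are part of the cells that gave the calls, so the shared sign is not separate evidence.

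C4b in Oligo2 was at 126 and 94.5 CPM in gray and 1149 and 1322 CPM in white matter (log2 fold change 3.57 ± 0.13, edgeR adjusted p = 2.44e-166). Serpina3n was at 22.0 and 15.6 CPM in gray and 311 and 359 CPM in white matter (log2 fold change 4.36 ± 0.15, and 2.46 at an equal mix of subclusters). Neither overlapped between tissues. The thinned share of cells with a C4b UMI was 11.8% and 18.5% in gray and 82.1% and 77.8% in white matter, and that of cells with a Serpina3n UMI 3.95% and 2.68% against 33.3% and 36.3%.

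Ifi27l2a (chr12:103442167-103443680, minus strand), an interferon-induced gene, was nearly absent from gray matter Oligo2, with 0 and 5 UMIs (0 and 1.08 CPM), and stood at 91.5 and 88.7 CPM in white matter, with 166 and 1452 UMIs (log2 fold change 6.60 ± 0.31). In Oligo1 it was at 3.79 and 4.09 CPM in gray and 10.7 and 5.64 CPM in white matter and was not called (adjusted p = 0.231, edgeR). Within Oligo2 the white matter level was 248 and 241 CPM in Oligo2c, 27.4 and 48.1 CPM in Oligo2a and 20 and 10.8 CPM in Oligo2b. Microglial-marker cells held 62.4 and 118 CPM in gray and 366 and 330 CPM in white matter. As wild-type libraries were left out, the fitted Ifi27l2a change in Oligo2 ranged from 6.36 to 12.60 on the log2 scale.

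Several genes were hardly found in gray matter Oligo2. Piezo2, a mechanically gated ion channel, had no UMI in either gray matter library and 20.4 and 34.9 CPM in white matter. With gray matter set to 3 counts over its pair of libraries, this is at least 62.3-fold higher. St8sia5, a sialyltransferase, had 0 and 1 UMIs in gray and 29 and 509 in white matter, a ratio of 165 with a counting interval of 29.6 to 6543. Masp1, a serine protease of the lectin pathway of complement, had no UMI in gray and 11 and 14.0 CPM in white matter Oligo2, at least 25.5-fold higher. The call for St8sia5 (adjusted p = 0.0889) and for Masp1 (adjusted p = 0.0622) was lost without white matter 2 in the edgeR fit of 8 libraries. DESeq2 did not call Piezo2 or Masp1 (adjusted p = 1 for each), and neither was in the test at an equal mix.

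Among the other large increases, Fxyd1, a regulator of the sodium pump, went from 12.1 and 4.32 to 77.2 and 79.7 CPM, a log2 fold change of 3.77 that was 1.76 at an equal mix. Adam11, Tmc3 and Art3 rose by 3.11, 3.09 and 3.53 on the log2 scale. The equal-mix values were 1.83 for Tmc3 and 1.85 for Art3, both called, and Adam11 was not in that test. Art3 had 0 and 14 UMIs in gray and 38 and 500 in white matter, and its fitted change ranged from 3.35 to 10.47 as libraries were left out. Rab3b, a small GTPase of vesicle release, and Adgrg6, an adhesion G protein-coupled receptor, rose by 3.35 and 3.01, but Rab3b lost its call without gray matter 2 or white matter 2 (largest adjusted p 0.182, edgeR) and Adgrg6 without white matter 2 (adjusted p = 0.0718, edgeR) and at an equal mix (1.11, adjusted p = 0.248, edgeR). Klk6 rose from 119 and 72.8 to 490 and 753 CPM and S100b from 410 and 242 to 838 and 940 CPM, each without overlap. Within Oligo2a, however, Klk6 was at 629 and 439 CPM in gray and 559 and 951 CPM in white matter and overlapped, as did S100b. Within Oligo2b, Klk6 was at 14.9 and 22.2 CPM in gray and 40 and 92.4 CPM in white matter and S100b at 146 and 117 against 215 and 275 CPM, and neither overlapped. The log2 fold change in Oligo2 at an equal mix was 0.72 for Klk6 and 0.44 for S100b, both called, against 2.88 and 1.54 before.

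The decreases in Oligo2 were led by Gm16233, at 29.7 and 38.3 CPM in gray and 5.51 and 3.54 CPM in white matter (log2 fold change −3.23 ± 0.26, and −1.74 at an equal mix). Ttyh1, which encodes a membrane protein of the tweety family, fell from 62.6 and 53.4 to 13.2 and 10.5 CPM, and Ogdhl, related to the oxoglutarate dehydrogenase enzyme, from 123 and 71.1 to 41.9 and 14.4 CPM. Ttyh1 was at 21.8 and 15.2 CPM in gray and 4.77 and 5.88 CPM in white matter microglial-marker cells, and the part of free RNA in its fall was not tested. Nr4a1, an immediate early nuclear receptor, fell from 26.4 and 32.6 to 5.51 and 7.76 CPM. Grm7 fell by 1.87 and St3gal6, a sialyltransferase, by 2.06 on the log2 scale. St3gal6 was at 351 and 367 CPM in gray and 161 and 215 CPM in white matter microglial-marker cells, far above its level in Oligo2. Its change ranged from −3.49 to −1.60 as libraries were left out, and it was not called in DESeq2 (adjusted p = 0.0513) or with no block (adjusted p = 0.0597, edgeR). Sparcl1 fell from 39.6 and 28.1 to 11 and 5.25 CPM beside the astrocyte-marker values given above. Dab1, Rapgef3, Vangl1, Dpyd and Lrp4 fell by 1.71 to 2.33, and each lost its call without gray matter 2 or white matter 2 (edgeR fit of 8 libraries). Without gray matter 2 their changes were −1.869, −1.463, −1.085, −0.863 and −0.885 on the log2 scale. DESeq2 did not call Vangl1, Dpyd or Lrp4 (adjusted p = 0.351, 0.0705 and 0.319), though it called Dab1 and Rapgef3. The changes of Sparcl1, Ogdhl and Grm7 were −1.54, −1.38 and −1.22 at an equal mix, all called. Vangl1, Dpyd, Lrp4 and Rapgef3 lost their calls there (adjusted p = 0.646, 0.0752, 0.297 and 0.0501, edgeR), while the last 3 were called with as many cells drawn at random, where Vangl1 was not tested. Ptgds (chr2:25466709-25470046, minus strand) was at 6446 and 4529 CPM in gray and 2486 and 1285 CPM in white matter Oligo2 (log2 fold change −1.60 ± 0.11). In Oligo1 Ptgds was at 26420 and 14840 CPM in gray and 23930 and 9205 CPM in white matter, where the tissues overlapped and the call was lost without gray matter 2 or white matter 2 (largest adjusted p 0.745, edgeR).

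**Figure D2:**
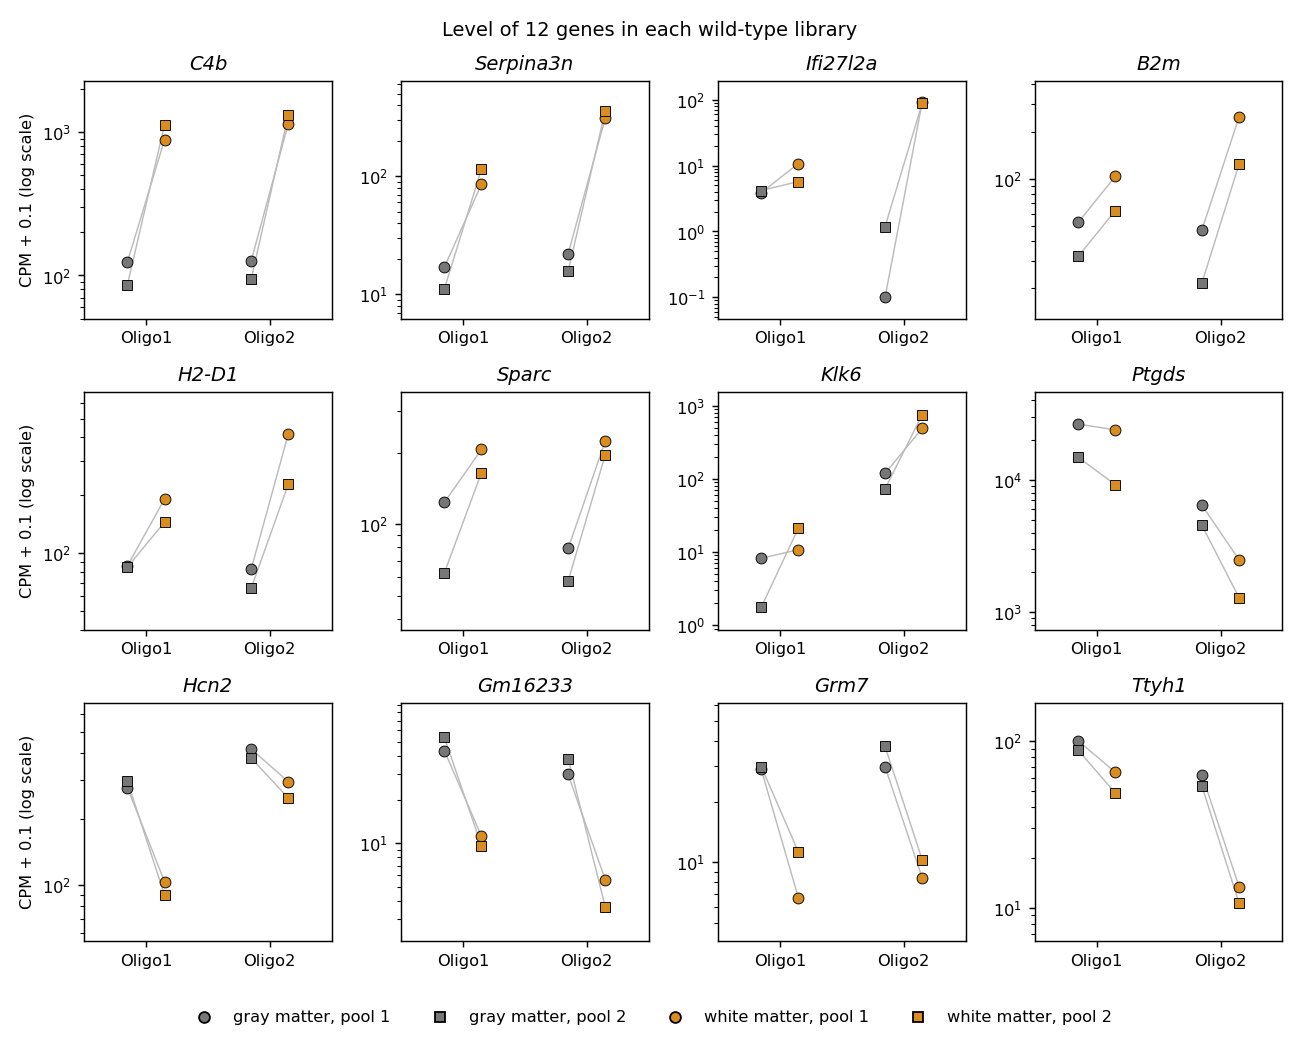
Level in CPM plus 0.1, on log axes, of 12 genes in Oligo1 and Oligo2 in each wild-type library (circles pool 1, squares pool 2, gray for gray matter and orange for white matter), with lines joining the 2 libraries of a pool. White matter lies above gray in both clusters for C4b (from 887 CPM in white against 126 CPM and less in gray), and Ifi27l2a separates by a wide margin in Oligo2, with 1.08 CPM or less in gray and 88.7 CPM or more in white matter.

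The gene lists were read against the shares called over all genes given above, 2.52% higher and 3.54% lower in Oligo1 and 3.72% higher and 3.41% lower in Oligo2. The median log2 fold change of all genes was −0.004 in Oligo1 and −0.006 in Oligo2. Over all genes, the equal mix called 141 higher and 156 lower of 9964 in Oligo1, and 57 and 64 of 8619 in Oligo2. As many cells drawn at random gave 209 and 250 of 10003, and 187 and 152 of 8606. Calls thus fell over all genes too. List counts and medians in these draws cover only the members still tested there. The study chose its age-related, IRO, Oligo1 and Oligo2 lists on its own samples, so their direction here is not independent evidence. Members given by name alone were called in the paired fit of the 4 libraries. The count filter was grouped by tissue, so a member nearly absent from a tissue could enter the test through the other. A member nearly absent from gray matter could hardly be called lower. The counts called higher include such members, among them Fos, Socs3, Masp1 and, in Oligo2, Piezo2.

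Of the age-related genes, 50 were called higher and 1 lower of 88 tested in Oligo1 (median log2 fold change 0.90), and 45 higher and 2 lower of 81 tested in Oligo2 (median 0.89). Besides C4b and Serpina3n they held Itih5, a protein that binds hyaluronan in the matrix, the metalloprotease-like Adam11 in Oligo2 and Nol3. At an equal mix of subclusters 32 were called in Oligo1 and 14 in Oligo2 (medians 0.80 and 0.44), against 42 and 27 with as many cells drawn at random (medians 0.85 and 0.93). Fos, an immediate early transcription factor on the list, had 1 and 0 UMIs in gray and 12 and 199 in white matter Oligo1, a ratio of 107 with a counting interval of 19.0 to 4254, and 2 and 0 against 28 and 223 in Oligo2, a ratio of 38.6 (10.6 to 320). Of the 13 immediate early genes tested in Oligo1, 3 were called higher and none lower (Fos, Fosl2 and Klf6), and of 9 tested in Oligo2 Fos and Junb were called higher and Nr4a1 lower. The call for Fos was lost without gray matter 2 or white matter 2 in both clusters (largest adjusted p 0.375 and 0.276, edgeR).

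Genes of signaling through the gp130 receptor were called higher for 7 of 13 tested in Oligo1 and 6 of 12 in Oligo2, and none was called lower (medians 0.62 and 0.65). With subclusters at an equal mix 4 were called in Oligo1 and 3 in Oligo2 (medians 0.70 and 0.21), and as many cells drawn at random gave 6 and 4 (medians 0.77 and 0.21). This list shares Serpina3n, Socs3, Bcl3, Cebpb, Cebpd and Stat3 with the age-related list. Socs3, a feedback inhibitor of cytokine receptors, had 1 and 2 UMIs in gray and 9 and 105 in white matter Oligo1, a ratio of 19.3 (6.44 to 95), and 0 and 1 against 15 and 156 in Oligo2, a ratio of 52.6 (9.31 to 2088). Bcl3, a nuclear regulator of NF-kappaB, was at 3.25 and 1.15 CPM in gray and 5.34 and 10.7 CPM in white matter Oligo1. Without gray matter 2 or white matter 2 the calls for Socs3 (largest adjusted p 0.541 in Oligo1 and 0.175 in Oligo2) and Bcl3 (0.763 and 0.321) were lost in the edgeR fit of 8 libraries.

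The IRO genes were called higher for 4 of 15 tested in Oligo1 (median 0.41) and 10 of 14 in Oligo2 (median 1.63), and none was called lower. Type I interferon-stimulated genes were called higher for 2 of 12 tested in Oligo1 and 5 of 10 in Oligo2, where Xaf1 was lower, and genes of MHC class I presentation for 2 of 11 and 5 of 12, none lower. The 3 lists share members. B2m (chr2:122147686-122153083, plus strand), the light chain of MHC class I, was at 52.6 and 31.9 CPM in gray and 104 and 62.7 CPM in white matter Oligo1 (log2 fold change 0.98 ± 0.12), and at 47.3 and 21.6 against 248 and 124 CPM in Oligo2 (2.48 ± 0.14). H2-D1 (chr17:35262730-35267499, plus strand), a classical heavy chain, was at 85.7 and 84.4 against 191 and 145 CPM in Oligo1 and at 82.4 and 65.5 against 417 and 228 CPM in Oligo2. White matter lay above gray in each of these 4 comparisons. H2-K1 was called higher in Oligo2, from 40.7 and 29.8 to 109 and 64.3 CPM, and was at 56.9 and 39.4 against 76.0 and 46.2 CPM in Oligo1, where it was not called (adjusted p = 0.15, edgeR). H2-D1 and H2-K1 are close in sequence to other MHC class I genes, and reads may be shared.

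The calls for B2m, H2-D1 and H2-K1 in Oligo2 held without each library (largest adjusted p 5.52e-07, 4.81e-09 and 0.00242, edgeR). The H2-K1 change was 1.20 on the log2 scale, 0.62 without Oligo2c and 0.31 at an equal mix, where its call was lost (adjusted p = 0.861, edgeR). With as many cells drawn at random it was 1.42 and called. Those for Bst2 and Eif2ak2 were lost without any one of the 4 libraries, and those for Psmb8, H2-T23 and Irf9 without gray matter 2 or white matter 2 (largest adjusted p 0.531 to 0.749 over the 5 genes, edgeR), and these genes were low, at 0.648 to 15.4 CPM except Psmb8 at 0.432 to 4.96 CPM. At an equal mix of subclusters the IRO list had 4 called members and a median of 0.48 in Oligo2, the type I interferon list 2 and 0.27, and the MHC class I list 2 and 0.11. As many cells drawn at random gave 6 and 1.61, 3 and 1.12, and 3 and 0.44. Microglial-marker cells held 1798 and 1701 CPM of B2m in gray and 3715 and 2881 CPM in white matter, and 777 and 735 against 2239 and 1552 CPM of H2-D1. Microglial markers themselves summed to 1175 and 124 CPM in gray and 772 and 104 CPM in white matter Oligo2, lower in white matter within each pool. T cell markers summed to 4.40 and 0.216 CPM in gray and 28.1 and 4.16 CPM in white matter Oligo2, and their part in the result was not tested.

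The 10 IRO genes called higher in Oligo2 were looked up in RefSeq promoters of GRCm38.p6, 250 bases before to 50 bases after the annotated start, since interferon-regulated genes commonly carry a site made of a repeated TTTC on either strand. Of the 10, 8 had a promoter in the table, and 4 of these (B2m, Bst2, Eif2ak2 and H2-T23) held the motif TTTCNNTTTC on one strand or the other. The motif was in 1131 of 32851 promoters (3.44%). H2-D1, H2-K1, Irf9 and Psmb8 did not hold these letters in this window. The promoters of the light chain B2m, the antiviral membrane protein Bst2 and the nonclassical heavy chain H2-T23 are shown 5′ to 3′ along the gene's strand, from chr2:122147437-122147736 (plus), chr8:71537423-71537722 (minus) and chr17:36032652-36032951 (minus), with the motif in capitals. B2m and Bst2 carry it on the opposite strand, Bst2 as 2 overlapping matches, and H2-T23 on the strand shown.
B2m: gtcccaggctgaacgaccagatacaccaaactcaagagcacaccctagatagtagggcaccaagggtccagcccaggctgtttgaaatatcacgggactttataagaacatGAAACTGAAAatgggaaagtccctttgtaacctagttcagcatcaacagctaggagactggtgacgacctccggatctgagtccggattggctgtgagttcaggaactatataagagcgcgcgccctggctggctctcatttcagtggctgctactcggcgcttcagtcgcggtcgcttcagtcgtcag
Bst2: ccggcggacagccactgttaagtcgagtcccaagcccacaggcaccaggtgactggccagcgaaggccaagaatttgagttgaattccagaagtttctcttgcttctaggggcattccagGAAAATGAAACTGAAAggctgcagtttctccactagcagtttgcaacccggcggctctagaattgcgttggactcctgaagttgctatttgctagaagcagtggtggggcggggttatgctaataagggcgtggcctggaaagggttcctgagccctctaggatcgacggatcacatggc
H2-T23: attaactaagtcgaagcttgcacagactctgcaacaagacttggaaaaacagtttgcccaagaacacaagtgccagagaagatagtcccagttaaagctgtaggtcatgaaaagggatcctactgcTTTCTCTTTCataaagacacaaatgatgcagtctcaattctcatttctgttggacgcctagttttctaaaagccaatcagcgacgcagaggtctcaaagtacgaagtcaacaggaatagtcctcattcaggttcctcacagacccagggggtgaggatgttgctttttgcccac
A match of letters is a description and not a bound site.

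Complement genes went both ways. C4b and Masp1 were called higher in both clusters and Cd59a, an inhibitor of the terminal complement complex, in Oligo2, from 27.5 and 19.0 to 64.5 and 59.1 CPM. C1qa, C1qb and C1qc were called lower in Oligo1 and C1qc in Oligo2. C1qc was at 127 and 14.6 CPM in gray and 84.6 and 8.34 CPM in white matter Oligo1, differing more between pools than between tissues as the summed microglial markers did, and its call was lost without gray matter 1, gray matter 2 or white matter 2 (largest adjusted p 0.503, edgeR). Of serpins and other protease inhibitors, 4 were called higher and 2 lower of 9 tested in Oligo1, and 3 higher and 2 lower of 8 in Oligo2. Serpind1 rose from 19.8 and 8.43 to 52.4 and 66.5 CPM in Oligo2.

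Of the listed Oligo1 markers, 10 of 14 tested were called lower in white matter in Oligo1 (median −0.55) and 10 of 13 in Oligo2 (median −1.60), and none was called higher. Oligo2 markers were called higher for 33 of 49 tested in Oligo2 (median 0.89) and none lower, and for 10 of 46 in Oligo1, with 6 lower (median 0.04). These genes helped to draw the clusters. At an equal mix of subclusters 10 of the Oligo2 markers were called in Oligo2 with a median of 0.29, and 4 of the Oligo1 markers with a median of −1.02. As many cells drawn at random gave 31 with a median of 0.87 and 8 with a median of −1.53. Crip2 and Cdkn1c, an inhibitor of the cell cycle, rose in Oligo2 by 2.05 and 1.84 on the log2 scale, from 18.7 and 15.1 to 69.5 and 64.9 CPM and from 20.9 and 21.2 to 71.1 and 76.8 CPM. Both held without each library (largest adjusted p 0.00114 and 0.0018, edgeR).

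**Figure D3:**
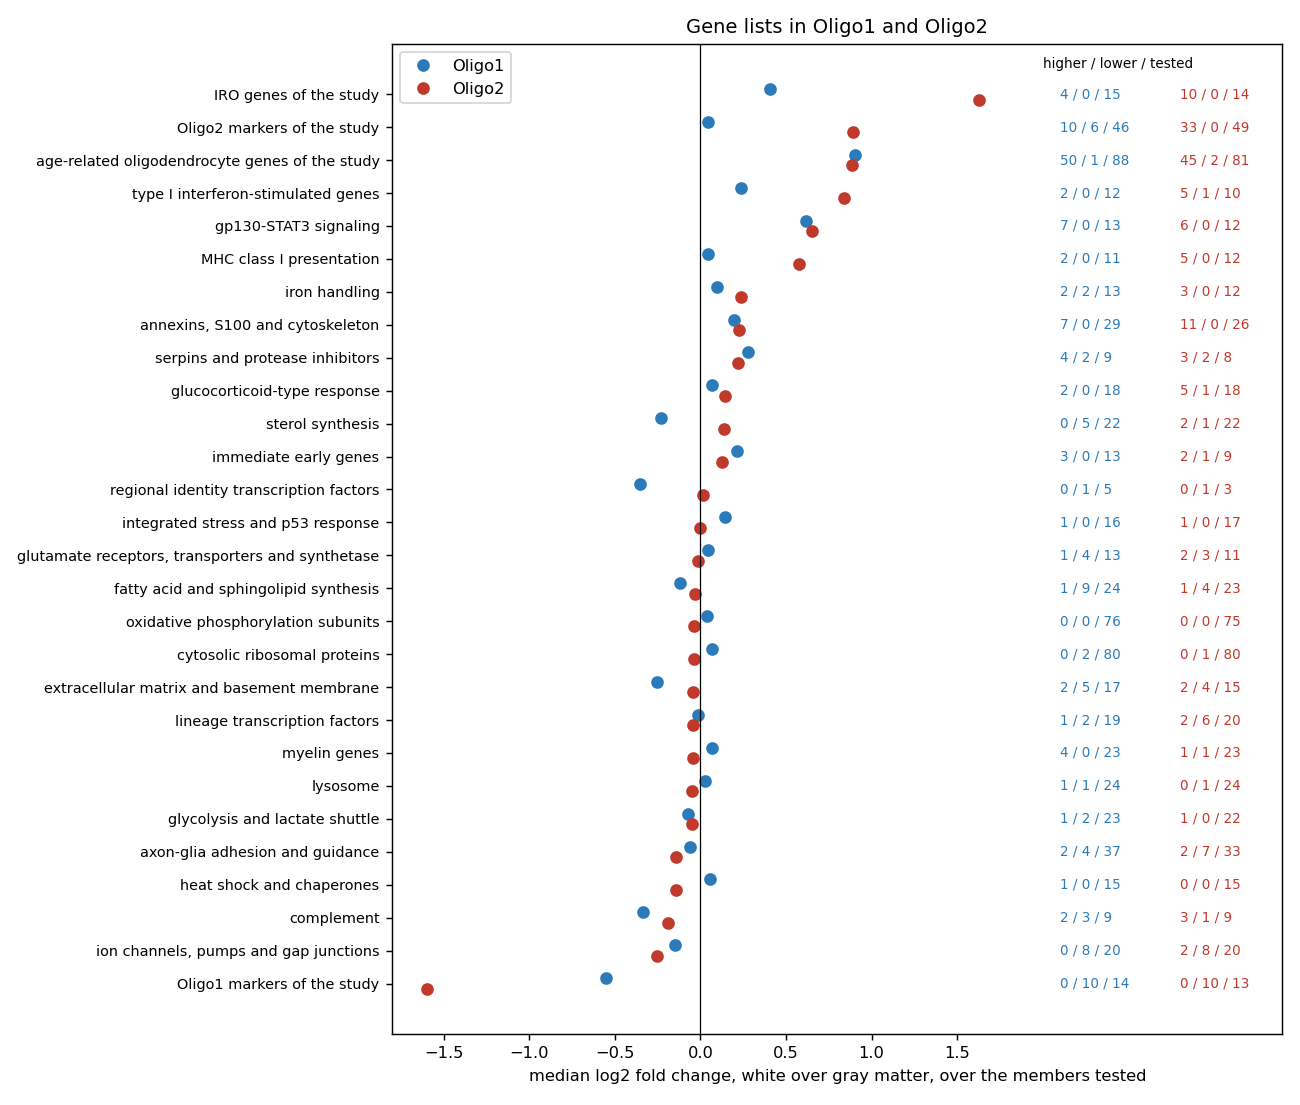
Median log2 fold change of white over gray matter over the tested members of 28 gene lists, in Oligo1 (blue) and Oligo2 (red), with the numbers called higher, called lower and tested at the right. The IRO list lies farthest to the right in Oligo2, at 1.63 with 10 of 14 called higher, and the Oligo1 markers farthest to the left, at −1.60.

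Of 23 myelin genes tested, Cd9, Mal, Cldn11 and Opalin were called higher in Oligo1 (4 of 23, against 2.52% of all genes), by 0.29 to 0.47 on the log2 scale, and none lower. Cd9, a tetraspanin, was at 1087 and 1011 CPM in gray and 1391 and 1505 CPM in white matter, and its call was lost without gray matter 2 or white matter 2 (largest adjusted p 0.297, edgeR). In Oligo2 the gap junction gene Gjb1 was called higher and Opalin lower, from 674 and 856 to 536 and 530 CPM, and the Opalin call was lost without gray matter 2 or white matter 2 (largest adjusted p 0.319, edgeR). Within Oligo2a, however, Opalin was at 72.1 and 82.0 CPM in gray and 134 and 132 CPM in white matter. In Oligo2b the tissues overlapped for Opalin. At an equal mix 2 myelin genes were called in Oligo1 and 0 in Oligo2, against 4 and 1 with as many cells drawn at random. The medians over the list in the paired fit were 0.07 and −0.04.

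Lipid synthesis genes called in Oligo1 were mostly lower in white matter. Of 22 sterol genes tested, 5 were called lower in Oligo1 and none higher (median −0.23), and in Oligo2 2 were called higher and 1 lower (median 0.14). Insig1, which retains the sterol-sensing complex in the endoplasmic reticulum, was at 263 and 186 CPM in gray and 192 and 127 CPM in white matter Oligo1 and at 163 and 159 against 127 and 92.0 CPM in Oligo2. Hmgcs1, an early enzyme of the pathway, was at 142 and 218 against 150 and 232 CPM in Oligo1 and rose from 175 and 235 to 264 and 371 CPM in Oligo2. Of fatty acid and sphingolipid genes, 9 were called lower and 1 higher of 24 tested in Oligo1, and 4 lower and 1 higher of 23 in Oligo2. Scd3, a stearoyl-CoA desaturase, fell from 70.3 and 59.2 to 33.1 and 30.9 CPM in Oligo2. Without gray matter 2 or white matter 2 the calls for Insig1 were lost (largest adjusted p 0.22 in Oligo1 and 0.438 in Oligo2), Hmgcs1 in Oligo2 lost its call without white matter 2 (0.103), and at an equal mix none of the fatty acid genes was called in either cluster, against 7 and 3 with as many cells drawn at random (edgeR).

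Ion channels, pumps and gap junction genes were called lower for 8 of 20 tested in each cluster, among them Hcn2, the calcium channel subunit Cacna1a, the gap junction gene Gjc3 and the chloride cotransporter Slc12a2 in both. None was called higher in Oligo1, and Piezo2 and Gjb1 were in Oligo2. With subclusters at an equal mix 6 members were called in Oligo1 and 1 in Oligo2 (medians −0.20 and −0.30), and as many cells drawn at random gave 7 and 5. Hcn2 in Oligo2 was at 416 and 379 CPM in gray and 296 and 249 CPM in white matter, a log2 fold change of −0.56 ± 0.11, and its call was lost without white matter 2 (adjusted p = 0.0649, edgeR). The calls for Cacna1a were lost without gray matter 2 or white matter 2 (largest adjusted p 0.88 in Oligo1 and 0.201 in Oligo2, edgeR). Glutamate receptors and related genes were called higher for 1 and lower for 4 of 13 tested in Oligo1 (Gria4 higher, and Grm7, Gria2, Glul and Slc38a2 lower), and higher for 2 and lower for 3 of 11 in Oligo2 (Grik1 and Gria4 higher, and Grm7, Slc38a2 and Glul lower). However, the call for Gria4 in Oligo2, at 22.0 and 19.7 CPM in gray and 17.6 and 36.7 CPM in white matter, was lost and its sign turned without gray matter 2 or white matter 2.

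Of lineage transcription factors, 1 was called higher and 2 lower of 19 tested in Oligo1. Hopx, a homeodomain-only protein, rose from 38.5 and 44.5 to 97.4 and 76.8 CPM there and from 281 and 226 to 721 and 714 CPM in Oligo2, without overlap. The Oligo2 change of 1.53 on the log2 scale was 0.69 at an equal mix. In Oligo2, 2 of 20 tested were called higher and 6 lower, while at an equal mix 2 were called (median 0.004) and with as many cells drawn at random 4. Nkx2-9 rose from 30.8 and 26.4 to 73.3 and 92.5 CPM, and Olig2, a determinant of the oligodendrocyte lineage, fell from 178 and 134 to 109 and 84.7 CPM. Within subclusters Nkx2-9 overlapped between tissues in Oligo2a and lay above gray in Oligo2b. Olig2 overlapped in both, though it was lower in white matter within each pool. Its log2 changes in pools 1 and 2 were −0.92 and −0.54 in Oligo2a and −0.38 and −0.34 in Oligo2b. The Olig2 call was lost without white matter 2 (adjusted p = 0.086, edgeR). Of annexins, S100 and cytoskeletal genes, 7 of 29 were called higher in Oligo1 and 11 of 26 in Oligo2, and none lower, while at an equal mix 5 and 3 were called (medians 0.20 and 0.10) and with as many cells drawn at random 6 and 8. Anxa2, a membrane-binding annexin, rose from 2.71 and 0.895 to 9.86 and 14.3 CPM in Oligo1, and its call was lost without gray matter 2 or white matter 2 (largest adjusted p 0.336, edgeR). Anxa2 was at 47.9 and 30.7 CPM in gray and 86.7 and 63.6 CPM in white matter microglial-marker cells.

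Of iron handling genes, 2 were called higher and 2 lower of 13 tested in Oligo1, and 3 higher and none lower of 12 in Oligo2. The transferrin gene Trf and Fth1, the ferritin heavy chain, were called higher in both clusters, the transporter gene Slc39a14 in Oligo2, and Cp and Slc25a37 lower in Oligo1. In gray matter 2, Slc25a37 was at 19.1 CPM in Oligo1c against 2.15 and 1.62 CPM in Oligo1a and Oligo1b. Oligo1c of that library also held the hemoglobin RNA Hbb-bs at 5100 CPM, and the part of red blood cell RNA in this call was not tested. Trf was at 3660 and 3966 CPM in gray and 4790 and 4560 CPM in white matter Oligo1 and at 5598 and 5579 against 8779 and 8193 CPM in Oligo2. The Oligo2 difference of 0.60 ± 0.11 on the log2 scale held without each library (largest adjusted p 0.00094), and the Oligo1 difference of 0.29 ± 0.09 did not (0.562, edgeR). Neither Trf nor Fth1 was called in Oligo2 at an equal mix, where the Trf difference was 0.27 (adjusted p = 0.39, edgeR; 0.53 and called with as many cells drawn at random), and Trf was at 12040 and 11170 CPM in white matter Oligo2c. Of matrix genes, 2 were called higher and 5 lower of 17 tested in Oligo1 and 2 higher and 4 lower of 15 in Oligo2. Timp3, an inhibitor of matrix metalloproteases, was at 21.1 and 13.1 CPM in gray and 1.23 and 1.44 CPM in white matter Oligo1, and was at 5.80 and 8.86 against 0 and 0.817 CPM in the microglial-marker cells. Cytosolic ribosomal protein genes (0 higher and 2 lower of 80 in Oligo1, 0 and 1 in Oligo2), oxidative phosphorylation subunits (0 called of 76 and 75), lysosomal genes (1 higher and 1 lower of 24, and 0 and 1), chaperones (1 and 0 of 15, and 0 called) and integrated stress and p53 genes (1 higher of 16 and of 17, Gadd45a in both) held few called members. Axon-glia adhesion and guidance genes had 2 called higher and 4 lower of 37 in Oligo1 and 2 and 7 of 33 in Oligo2, and glycolysis genes 1 and 2 of 23 and 1 and 0 of 22. Glucocorticoid-type genes had 2 called higher of 18 in Oligo1 and 5 higher and 1 lower of 18 in Oligo2, and regional transcription factors 1 lower of 5 and 1 lower of 3. Of the glucocorticoid-type genes, 1 was called in Oligo2 at an equal mix and 2 with as many cells drawn at random. In white matter Oligo2a, Cdkn1a was at 461 and 19.4 CPM, Fkbp5 at 38.9 and 6.03 CPM and Sult1a1 at 76.35 and 0.548 CPM. These 3 thus differed widely between pools, while Cdkn1c was at 89.3 and 137.5 CPM there.

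Whether a gene changed between tissues by the same amount in both clusters was tested directly, since the clusters come from the same 4 libraries and cannot be set against each other as separate evidence. The white over gray log2 fold change was higher (more positive) in Oligo2 for 234 of 10646 genes (2.2%) and lower (more negative) for 220 (2.07%). Side by side, 114 genes were called higher in both clusters and 140 lower in both. Of the others called in both, 3 were higher in Oligo1 and lower in Oligo2, and 8 the reverse. The change of C4b did not pass the test of a difference (0.19 ± 0.10 on the log2 scale, adjusted p = 0.459, edgeR), while that of Serpina3n was larger in Oligo2 by 1.24 ± 0.21. Without Oligo2c that difference was −0.31 and at an equal mix −0.80, neither past the threshold (adjusted p = 0.745 and 0.99, edgeR).

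Among the 16 genes that the naming rule picks for this test, Ifi27l2a showed the largest difference, 6.04 ± 0.54 on the log2 scale, and its call held without each library. B2m and H2-D1 changed more in Oligo2 by 1.52 ± 0.16 and 1.08 ± 0.11, and without Oligo2c by 0.84 and 0.42 (adjusted p = 0.000415 and 0.0288, edgeR). At an equal mix these were 0.45 and 0.40 and not past the threshold (adjusted p = 1 for each, edgeR). Nr4a1 stood at 45.0 and 53 CPM in gray and 51.8 and 57.1 CPM in white matter Oligo1 beside its fall in Oligo2, a difference of −2.20 ± 0.22. Ldhb fell in Oligo1 and was at 167 and 115 CPM in gray and 121 and 128 CPM in white matter Oligo2, a difference of 1.59 ± 0.13. Within Oligo2b, however, Ldhb was at 138 and 100 CPM in gray and 66.6 and 55.8 CPM in white matter. In Oligo2a the tissues overlapped, at 301 and 218 CPM in gray and 194.5 and 251 CPM in white matter. Ptgds differed by −1.17 ± 0.05, and by −0.92 without Oligo2c.

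Luzp2, a leucine zipper protein, was called in opposite directions, at 23.3 and 18.6 CPM in gray and 5.75 and 9.96 CPM in white matter Oligo1 and at 20.9 and 19.7 against 38.6 and 38.7 CPM in Oligo2 (difference 2.09 ± 0.25). Luzp2 was at 17.4 and 20.8 CPM in gray and 1.43 and 1.31 CPM in white matter microglial-marker cells. Cdkn1a, an inhibitor of the cell cycle, differed by 2.11 ± 0.23, but its level differed mostly between pools, at 484 and 1.28 CPM in gray and 608 and 9.96 CPM in white matter Oligo1 and 42.9 and 0.216 against 232 and 7.58 CPM in Oligo2. Of the 16 genes named by the rule for this test, Ifi27l2a, Nr4a1, Luzp2 and Fxyd1 kept their call without each library in turn. DESeq2 called 3 of the 16, Ifi27l2a, Nr4a1 and Cdkn1a, and did not call Luzp2 (adjusted p = 0.0972). The Fxyd1 difference, 1.72, was not called by DESeq2 (adjusted p = 0.427), with no block (adjusted p = 0.0623, edgeR), without Oligo2c (0.36, adjusted p = 0.845, edgeR) or at an equal mix (−0.042, adjusted p = 1, edgeR).

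**Figure D4:**
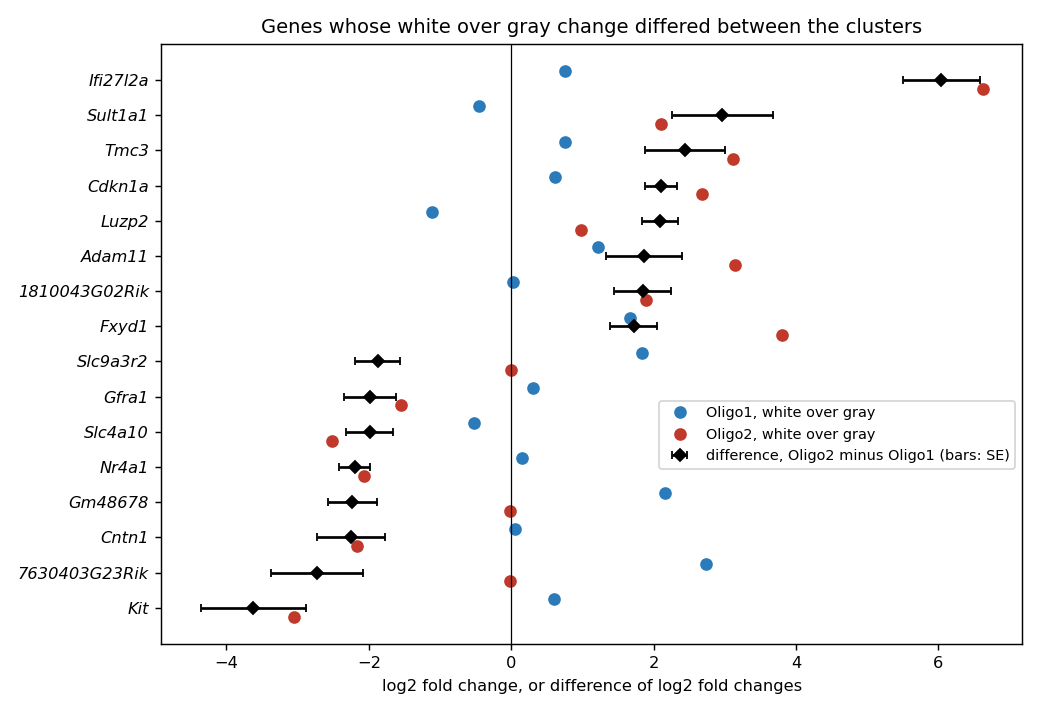
Log2 fold change of white over gray matter in Oligo1 (blue) and Oligo2 (red) and their difference, Oligo2 minus Oligo1 (black, bars are the SE), for the 16 genes named for the test of the difference. Ifi27l2a lies far to the right with a difference of 6.04, and Kit, at −3.62, farthest to the left.

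Within the subclusters, compared without a test, white matter C4b lay above gray in all 5 subclusters with cells in both tissues. In Oligo1b, for example, it was at 166 and 76.4 CPM in gray and 636 and 554 CPM in white matter, and in Oligo2b at 78.6 and 89.7 against 643 and 771 CPM. Serpina3n, B2m and H2-D1 also lay above gray in all 5, and Hcn2 and Ttyh1 lay below. Serpina3n was at 12.2 and 13.4 CPM in gray and 56.6 and 85.3 CPM in white matter Oligo2b. Oligo2c, present in white matter only at the cell number required, held the highest levels of C4b (2259 and 2476 CPM) and Serpina3n (842 and 996 CPM). Nr4a1 in Oligo2b was at 32.5 and 36.8 CPM in gray and 15 and 12.3 CPM in white matter, and gray matter Oligo2a held no Nr4a1 UMI in either library.

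**Figure D5:**
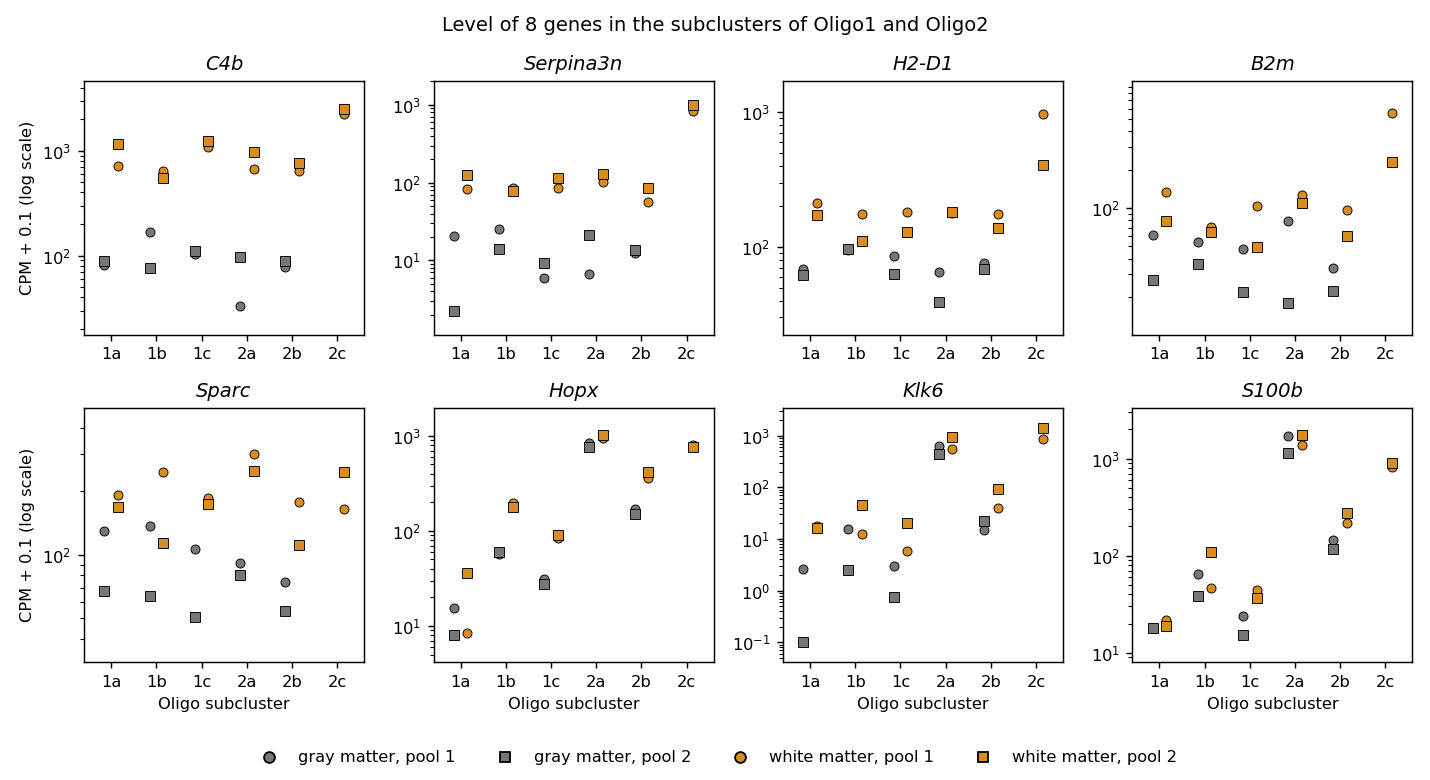
Level in CPM plus 0.1, on log axes, of 8 genes in the subclusters of Oligo1 and Oligo2 in each wild-type library (circles pool 1, squares pool 2, gray for gray matter and orange for white matter). White matter C4b lies above gray matter in each subcluster that both tissues share, and Oligo2c appears in white matter only.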

How the data were processed

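The authors' deposited files hold raw UMI counts per gene and cell and the authors' cluster names. Per the labels, the series used Cell Ranger and mm10, though the labels and the study's methods differ on the Cell Ranger version for the wild-type libraries, and gene coordinates are those of GRCm38. Counts were summed over the Oligo1 or Oligo2 cells of each wild-type library, and every cell with one of these names was kept, with no further doublet call. The transcripts Gm42418 and AY036118 were left out, because the deposited counts of 1 pool hold them at 0. Deposited values were not rescaled, and 0 columns of other samples were left unused.

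Genes were filtered with filterByExpr grouped by tissue (and by cluster for the difference) and scaled by TMM. They were tested with edgeR 4.0.16 in R 4.3.3 (glmQLFit, two-sided F test, pool as a block, Benjamini-Hochberg over all genes tested). The difference between clusters was a cluster by tissue term over the 8 sums, with each library as a block. The empirical Bayes step gave all genes 1 spread. SE is the log2 fold change over the root of F, so it does not measure a gene's own spread between the pools. Libraries of a pool come from the same mice, and their deviations correlated at 0.607 in Oligo1 and 0.358 in Oligo2, so the block is used throughout. DESeq2 1.42.0 was an alternative. Each wild-type library was left out in a fit of 8 libraries that adds the 4 Rag1 KO libraries with their own pool blocks and tissue term, on genes with counts in both genotypes. The equal mix of subclusters was drawn with a fixed seed, and a random draw of as many cells was added after seeing the data. CPM are TMM-scaled, except in subclusters and in the microglial-marker cells, where they are per total UMIs. Exact (Clopper-Pearson) 95% intervals and floors cover counting error only. The p-values rest on how the white over gray difference varied between the 2 pools, taken as 1 spread across all genes and not gene by gene.

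Genes named in the text are, in each cluster, the 12 largest called increases and decreases with a mean of at least 10 CPM, one direction in both pools and no overlap; the 8 largest differences between clusters in each direction; up to 4 called members of each gene list; and a few genes of the study. Markers of other cell types were left out of the first sets. Members and lists were chosen with earlier results of these data known. The deposited names of microglia covered no wild-type library, so cells with at least 50 microglial-marker UMIs and over 5 times their oligodendrocyte- and astrocyte-marker UMIs were used to show free RNA, a departure from the planned names. The scripts were tested on simulated data. One Oligo1 cell of gray matter 2 held 16477 of the 16500 hemoglobin UMIs in that sum. Values of certain genes are not reported here.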

Additional observations from a re-analysis of the deposited data

Results flagged for a closer look

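Of the 234 and 220 genes whose white over gray change differed between the clusters by edgeR's test of the difference itself, the 16 that the rule for the largest differences names are given as differences of log2 fold changes, Oligo2 minus Oligo1. The log2 fold change was higher (more positive) in Oligo2 for Ifi27l2a (6.04), Sult1a1 (2.96), Tmc3 (2.44), Cdkn1a (2.11), Luzp2 (2.09), Adam11 (1.86), 1810043G02Rik (1.85) and Fxyd1 (1.72). It was lower (more negative) in Oligo2 for Slc9a3r2 (-1.88), Gfra1 (-1.99), Slc4a10 (-1.99), Nr4a1 (-2.20), Gm48678 (-2.23), Cntn1 (-2.25), 7630403G23Rik (-2.72) and Kit (-3.62). Among the latter, Nr4a1, Cntn1, Gfra1 and Slc4a10 were called lower in white matter in Oligo2 and not called in Oligo1, while Slc9a3r2, Gm48678 and 7630403G23Rik were called higher in Oligo1. Kit was at 15.7 and 18.9 CPM in gray and 16.8 and 30.9 CPM in white matter Oligo1, and at 3.30 and 2.16 against 0 and 0.305 CPM in Oligo2. Sult1a1 was at 28.2 and 0.639 CPM in gray and 23 and 0.180 CPM in white matter Oligo1, so its levels differed mostly between pools. Without 1 wild-type library, in the fit of 8 libraries, some values moved far: Gfra1 to -0.17, Sult1a1 to 0.78, Slc9a3r2 to -0.92, Tmc3 to 1.58, Adam11 to 3.27, Gm48678 to 0.62, Kit to -7.93 and Ifi27l2a to 11.12. Adam11 lost its call without each of the 4 libraries, and only Ifi27l2a, Luzp2, Nr4a1 and Fxyd1 kept theirs without every one, with 1810043G02Rik not in that fit. DESeq2 called 3 of the 16, and 4 of the 16 were called at an equal mix of subclusters.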

How the results depend on the processing

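Counts are given as genes called higher then lower in Oligo1, higher then lower in Oligo2, and log2 fold change higher then lower in Oligo2 than in Oligo1. The replicate block decided most calls: with no replicate block they were 6 and 4, 87 and 50, and 85 and 86, against 271 and 380, 375 and 344, and 234 and 220 with it. DESeq2 gave 28 and 33, 69 and 47, and 13 and 6. At an equal subcluster mix they were 141 and 156, 57 and 64, and 7 and 11. That draw also uses fewer cells, and the same number of cells at random, a setting chosen after seeing the data, gave 209 and 250, 187 and 152, and 108 and 97. With at least 50 counts per library, which tests fewer genes, the increases fell to 155 in Oligo1, and Oligo2 had 237 and 208. The fit of 8 libraries, which adds 4 Rag1 KO libraries, gave 210 and 261, 474 and 383, and 321 and 323. Leaving out each wild-type library from that fit gave 27 to 213 and 44 to 246, 62 to 495 and 51 to 378, and 40 to 349 and 33 to 339, lowest without gray matter 2 or white matter 2. Median-ratio scaling, no count filter, all 8 libraries without omission and Oligo2 without Oligo2c kept each count within 1.5 times.

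Signs turned for some single genes, and the cause was not tested. At an equal mix the difference between clusters became -0.42 for Adam11, -0.042 for Fxyd1, -1.01 for Hopx, 0.065 for Kirrel3, -1.96 for Klk6, -0.40 for S100b, -0.80 for Serpina3n, -0.63 for Tmc3 and -0.080 for Trf, and Kit in Oligo1 became -0.26. Without Oligo2c the Serpina3n difference was -0.31. Without 1 library the sign turned for Cp in Oligo1 (-2.74 to 0.93), Rpl13a in Oligo1 (-0.50 to 0.042), Gria4 (-0.30 to 0.92), Sult1a1 (-0.98 to 3.47) and Tubb2b (-0.98 to 2.18) in Oligo2, and for the differences of Dpyd (-1.53 to 0.69), Fads1 (-1.01 to 0.13) and Gm48678 (-2.51 to 0.62), given as ranges over the libraries left out.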
